A study of Mus musculus with 12 samples.

Results

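*Csf1* and *Csf1r*, a growth factor of the myeloid lineage and its receptor, were described across sorted microglia of adult and aged mice. They were 2 of the 770 genes on the NanoString nCounter Neuroinflammation panel, which counts single RNA molecules by fluorescent barcodes and needs no amplification. The pair was chosen by its normalized values in these same samples, which were known, and as ligand and receptor, so its levels and differences are given as a description, without p-values. Members of neighboring pathways were tested, and their tests follow the account of the pair.

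*Csf1r* encodes a receptor tyrosine kinase of myeloid cells, and microglia depend on its activity to survive and to divide. CSF-1, the product of *Csf1*, is secreted or displayed on the membrane and is made by several cell types of the brain, among them microglia, astrocytes and endothelial cells. The other ligand, IL-34, comes largely from neurons, and its gene *Il34* was not on the panel. Ligand binding leads to phosphorylation of the receptor, recruits Src family kinases and PI3K, and starts the cascade that ends in phosphorylation of ERK1/2, the mark by which the aged cells were sorted.

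Each sample held RNA of fixed and permeabilized microglia from the CNS of 2 C57B6 mice, a male and a female. Aged mice of more than 80 weeks gave 4 samples of P-ERK1/2 High microglia (2, 5, 7 and 8) and 4 of P-ERK1/2 Low microglia (3, 6, 9 and 12), called High and Low from here on. Another 4 samples (1, 4, 10 and 11) came from adult mice of 12 to 20 weeks and were not separated by P-ERK1/2. Adult sample 11 carries a mark of poor quality in its title, so the adult group rests on 3 samples and sample 11 is given on its own.

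The cells were enriched with CD11b beads, and the methods of the study gate microglia as YFP+, CD45 intermediate and Ly6G-, with YFP driven by the *Cx3cr1* promoter. Border macrophages express *Cx3cr1* as well, so YFP alone does not separate them from microglia. The labels call mice and cells untreated, whereas the study describes these adult mice as sampled shortly after tamoxifen and the aged mice long after it. Age and time since tamoxifen therefore cannot be told apart. No label ties a High sample to a Low sample of the same mice, and where mice are shared the tests do not use it.

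The values were the authors' normalized signal, in which the geometric mean of 13 housekeeping genes is the same in every sample. Total counts over the panel were 650965 to 1539936 in High, 123798 to 157209 in Low and, among adult samples other than 11, 137980 to 326575, so High samples were deeper than these. A gene was taken as above background when its count exceeded the mean plus 2 SD of the negative control probes, a limit of 20.6 to 41.9 counts. The limit is set in counts, so in deeper samples it lies at a lower normalized value, and a difference against a group with no sample above it is limited by background. *Csf1* and *Csf1r* lay above it in all 12 samples, by 8.85-fold at the least (*Csf1* in adult sample 1). Of the microglia markers, all 8 were above background in every High sample, but *P2ry12* and *Gpr34*, which encode surface receptors typical of resting microglia, were above it in no Low sample.

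The sequence before the start of *Csf1* is shown because transcription factors of the ETS, AP-1, EGR and serum response factor families are known targets of ERK signaling and the cells were sorted by P-ERK1/2. These are the 250 bases at chr3:107760470-107760719 of GRCm38.p6, minus strand, from the RefSeq promoter table, with motif matches in capitals. *Csf1r* had no entry there.
*Csf1* promoter: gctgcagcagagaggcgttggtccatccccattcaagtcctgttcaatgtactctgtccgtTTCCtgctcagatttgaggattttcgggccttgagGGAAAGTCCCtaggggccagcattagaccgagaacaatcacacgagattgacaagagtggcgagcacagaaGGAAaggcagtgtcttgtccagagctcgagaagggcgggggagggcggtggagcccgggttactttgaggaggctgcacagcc

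Both strands were searched. The ETS core GGAA matched 3 times, the first of them on the opposite strand, and 93.4% of 32851 promoters of the same length held it. A match to the NF-kB motif lay 154 to 145 bases before the start, overlapped the middle ETS core and was found in 7.3% of promoters. No match was found to the AP-1 motif TGANTCA (6.7% of promoters), the EGR motif GCGNGGGCG (4.7%) or the CArG box of serum response factor (1.5%). A match describes the letters of this window and says nothing of binding.

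*Csf1* was higher in aged High microglia than in the other groups. Its normalized values were 6656, 19859, 3968 and 9126 in High samples 2, 5, 7 and 8. In Low samples 3, 6, 9 and 12 they were 1288, 1437, 1295 and 1780, and in adult samples 1, 4 and 10 they were 842, 1248 and 741. The lowest High sample thus lay above every Low and kept adult sample. In bulk RNA of this kind, fewer cells of a type and less RNA per cell cannot be told apart.

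The group means of *Csf1* were 9902 ± 6964 (SD, n = 4) in High, 1450 ± 231 (SD, n = 4) in Low and 944 ± 269 (SD, n = 3) in adult microglia. The mean of High was 6.83-fold that of Low and 10.5-fold that of adult microglia. Much of this came from High sample 5, without which the mean of High was 6584, or 4.54-fold and 6.98-fold. High was also the most variable group, with its highest sample 5.00-fold above its lowest, against 1.38-fold in Low and 1.68-fold in adult microglia. On the scale of log2(value + 1), the difference between High and Low was 2.53 (SE 0.50) and that between High and adult was 3.18 (SE 0.61). SEs of the pair and of its ratio come from the pooled spread of the 2 groups, and those of other genes are moderated by limma. Leaving out any 1 sample kept the former between 2.11 and 2.89 and the latter between 2.76 and 3.53.

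Low came next in the order of *Csf1* and was 1.54-fold adult microglia in the means, or 0.64 (SE 0.23) on the log2 scale. These neighbors did not overlap, but they nearly touched. The lowest Low sample rested on 380 counts (Poisson 95% interval of the value 1161 to 1424) and the highest kept adult sample on 1072 (interval 1175 to 1325). The 2 intervals overlapped, so these samples were not distinguishable by counting error, which is the only error the intervals cover.

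*Csf1r* had another order, with Low highest. Its normalized values were 2602, 2801, 2640 and 2937 in Low samples 3, 6, 9 and 12. They were 1838, 1498, 1195 and 1683 in High samples 2, 5, 7 and 8, and 1829, 1655 and 2053 in adult samples 1, 4 and 10. All Low samples lay above all others, whereas the High and adult samples overlapped.

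The receptor varied less than the ligand within each group. Its means were 2745 ± 154 (SD, n = 4) in Low, 1846 ± 200 (SD, n = 3) in adult and 1553 ± 277 (SD, n = 4) in High microglia. Low was 1.77-fold High and 1.49-fold adult microglia. The log2 difference was -0.84 (SE 0.14) for High minus Low and 0.58 (SE 0.089) for Low minus adult. For High minus adult it was -0.26 (SE 0.18), and -0.14 without High sample 7, the sample with the lowest *Csf1r*.

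**Figure D1:**
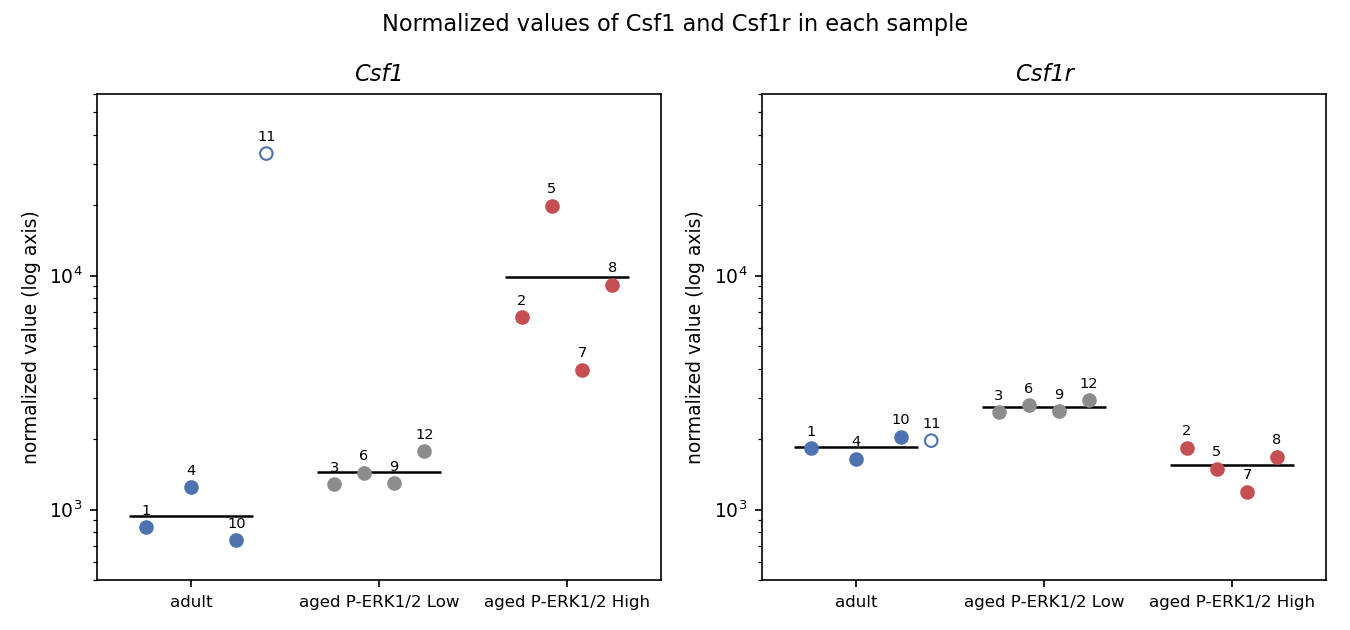
Normalized values of *Csf1* (left) and *Csf1r* (right) on a log axis, with 1 point per sample numbered as in the text, the group mean as a line and adult sample 11, left out of the adult mean, as an open circle. The High samples sit between 3968 and 19859 for *Csf1*, above the other kept samples, and the Low samples sit between 2602 and 2937 for *Csf1r*.

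The ratio of *Csf1* to *Csf1r* counts in the same sample was then compared between groups, since a factor applied to the whole sample cancels in it. Its level holds the efficiencies of the probes and is read only between samples. It was 3.62, 13.3, 3.32 and 5.42 in High samples 2, 5, 7 and 8. In Low samples 3, 6, 9 and 12 it was 0.495, 0.513, 0.490 and 0.606, and in adult samples 1, 4 and 10 it was 0.460, 0.754 and 0.361. All High samples thus lay above all other kept samples, and the Low values lay within the adult range.

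The mean ratio was 6.41 ± 4.66 (SD, n = 4) in High, or 4.12 ± 1.14 (SD, n = 3) without sample 5, 0.526 ± 0.0543 (SD, n = 4) in Low and 0.525 ± 0.205 (SD, n = 3) in adult microglia. On the log2 scale High exceeded Low by 3.37 (SE 0.46) and adult microglia by 3.44 (SE 0.60). Low and adult microglia differed by 0.066 (SE 0.27), since ligand and receptor were higher in Low by similar amounts. Leaving out 1 sample kept the ratio difference between High and Low between 2.94 and 3.61. For Low minus adult it ran from -0.17 to 0.36, so its direction rested on single samples.

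**Figure D2:**
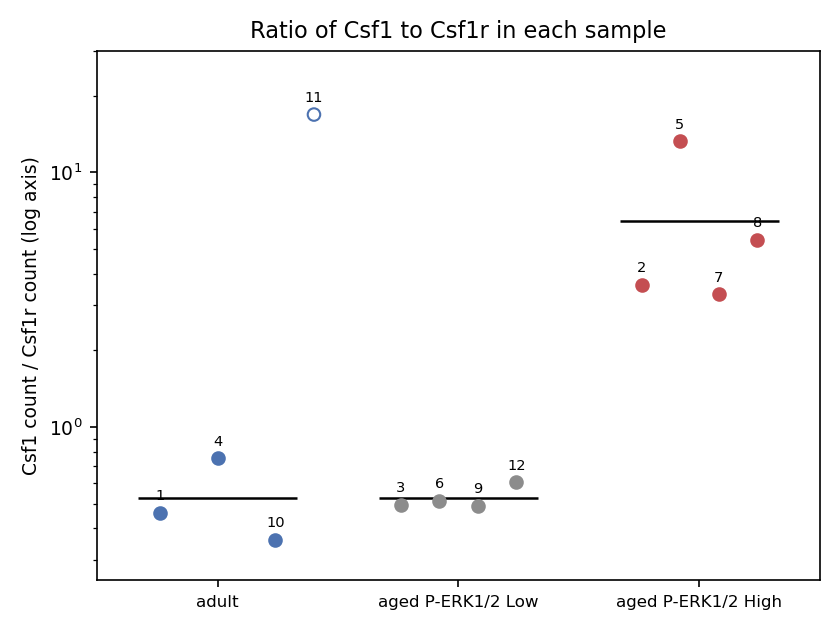
Ratio of *Csf1* to *Csf1r* counts in each sample on a log axis, with the group mean as a line and adult sample 11 as an open circle. The 4 High samples sit between 3.32 and 13.3, and the Low and kept adult samples sit between 0.361 and 0.754.

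The differences of each gene alone depended on how the samples were scaled. Between High and Low, the median log2 difference of all 770 genes was 0.26 as deposited, -0.71 when each sample was brought to the same panel total, 1.00 with the 6 most stable housekeeping genes and 2.15 with the positive controls alone. The 13 housekeeping genes themselves included *Supt7l*, a coactivator subunit, which was higher in High by 3.34 (SE 0.21, limma, Benjamini-Hochberg adjusted p = 2.1e-06). Over 6 scalings *Csf1* stayed higher in High, by 1.50 to 4.52. *Csf1r* ran from -1.86 to 1.15, and with the 6 most stable housekeeping genes it was -0.067, so whether the receptor was lower in High depended on the scaling.

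As deposited, *Csf1* lay 2.28 log2 units above the median difference of all genes between High and Low, and *Csf1r* lay at -1.09 from it. A scaling by 1 factor per sample leaves such distances and the ratio in place by construction, apart from the effect of the pseudocount, and these scalings gave 2.22 to 2.37 for *Csf1* and, at equal panel totals, -1.15 for *Csf1r*. Quantile normalization, which is not of this kind, gave 1.91 and -1.23, with a ratio difference of 3.14. For Low minus adult, *Csf1* ran from -0.17 to 0.64 and *Csf1r* from -0.24 to 0.58, with the values below 0 under the positive controls alone. From the median gene they lay at 0.54 and 0.47 as deposited and at 0.20 and 0.088 after quantile normalization.

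**Figure D3:**
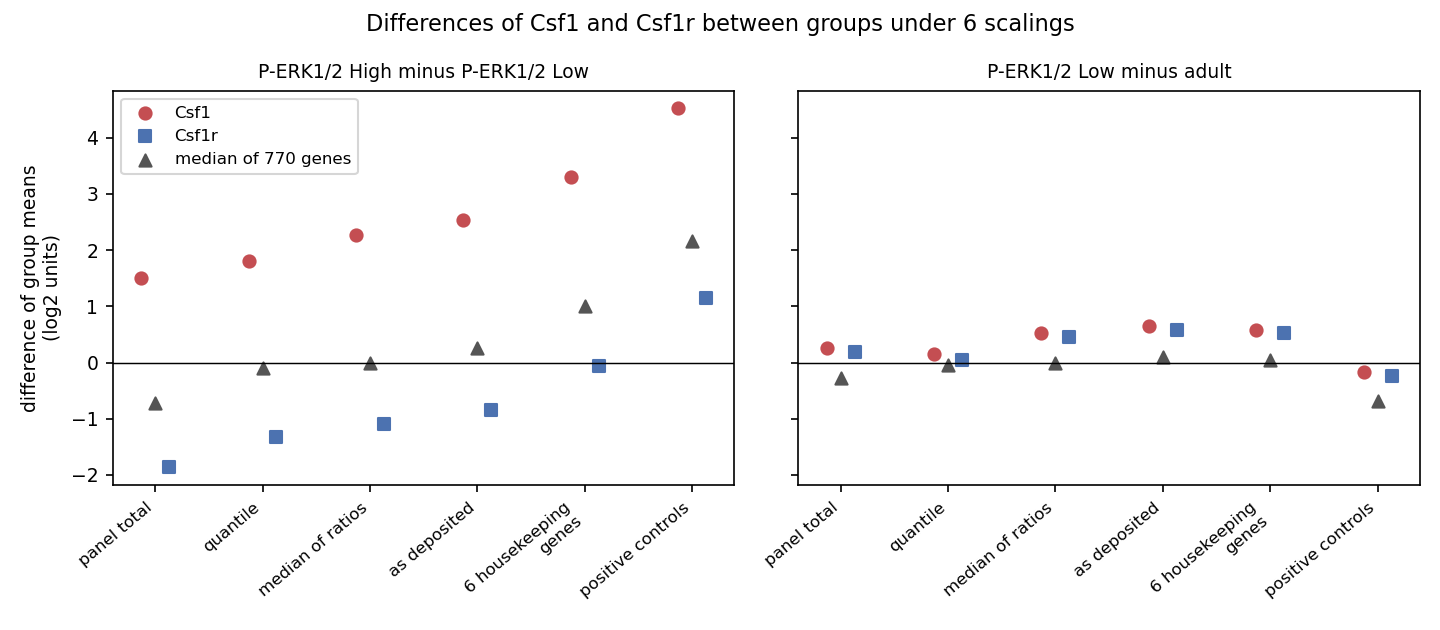
Differences of group means (log2 units) of *Csf1*, *Csf1r* and the median of all 770 genes under 6 ways of scaling the samples, for High minus Low (left) and Low minus adult (right). On the left the gap between *Csf1* and *Csf1r* is nearly fixed by construction except under quantile normalization (3.14), while both genes move with the scaling and *Csf1r* crosses 0.

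As a share of all counts of the panel, *Csf1* took 0.543% to 1.80% in High, 0.299% to 0.351% in Low and 0.217% to 0.328% in kept adult samples. *Csf1r* took 0.136% to 0.210%, 0.578% to 0.628% and 0.435% to 0.602%. On this scale, the receptor's share in High lay below that of every other kept sample.

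The call thresholds were those of the study, a p under 0.01 together with a log2 difference beyond 1. They were applied to all 770 genes, and no call is given for the pair, whose values chose it. In High against Low 28.2% of the 770 genes were called higher and 9.61% lower, and in High against adult microglia 29.2% and 7.66%. In Low against adult microglia 8.05% of genes were called higher and 2.73% lower. The groups did not overlap for either gene between High and Low, which held for 49.4% of genes, nor between Low and adult microglia, which held for 36.5%. Between High and adult microglia this held for *Csf1* and for 50.3% of genes. Because these values chose the pair, nothing is read from its overlap.

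By size of increase, *Csf1* ranked 25 of 770 in High minus Low, 9 in High minus adult and 139 in Low minus adult. *Csf1r* ranked 662, 558 and 159. The 3 comparisons share samples and their ranks are not independent.

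Adult sample 11 stood far from the other adult samples for the ligand. Its *Csf1* value was 33231.5, above every other sample of the study, and its *Csf1r* value was 1972.5, within the adult range. The ratio was 16.8 and the total count 1464449, the second highest of all samples. With sample 11 in the adult group, the log2 difference of *Csf1* fell from 3.18 to 1.88 against High, turned from 0.64 to -0.65 for Low minus adult, and both comparisons overlapped.

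*Csf1* also followed the depth of the samples. Within High the order of the total counts, sample 5, 8, 2 and 7, was the order of the *Csf1* values. The ratio to *Csf1r* had this order too, at 13.3, 5.42, 3.62 and 3.32. Kept adult samples had the order 4, 1 and 10 in total count and in ratio (0.754, 0.460 and 0.361). In Low the deepest sample, 9, had the lowest ratio (0.490). Over the 11 kept samples, Pearson's r of log2 *Csf1* with the log2 total count was 0.92, and 0.79 for deviations from the group means. *Csf1r* gave -0.78 and -0.22. These samples share 3 groups that differ in depth, and the part of depth in the level of *Csf1* or in the ratio was not tested.

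**Figure D4:**
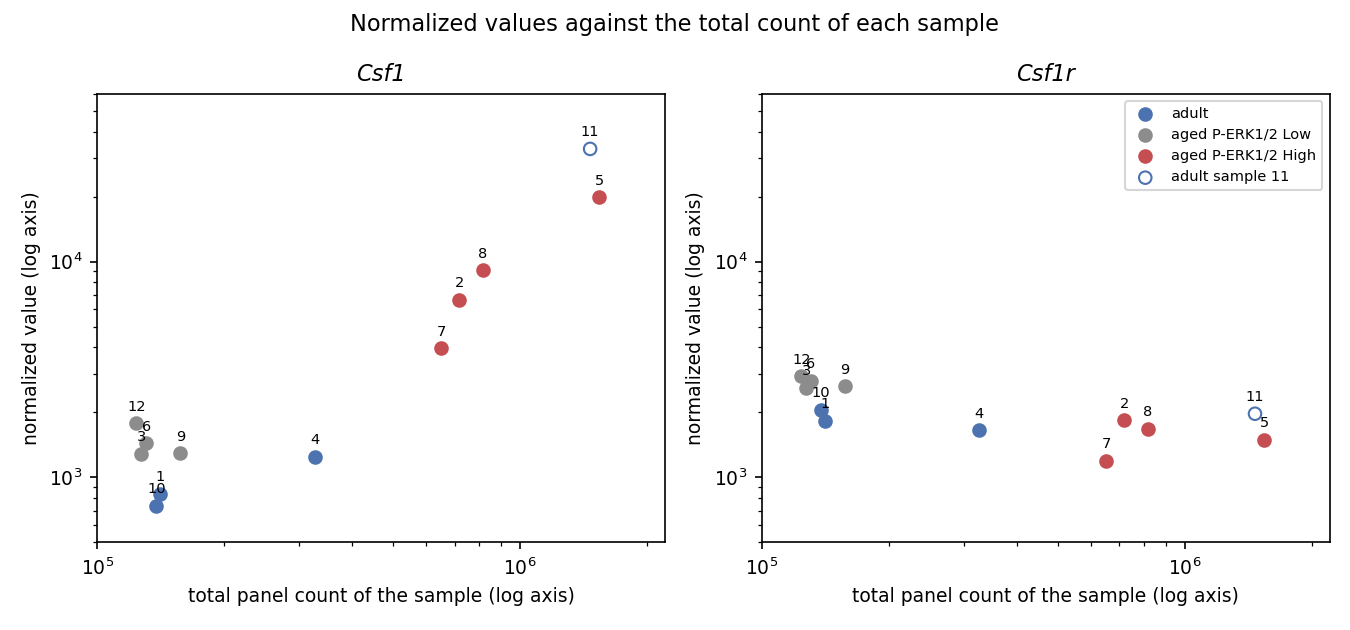
Normalized value of *Csf1* (left) and *Csf1r* (right) against the total panel count of each sample, both axes logarithmic, with 1 point per sample colored by group. *Csf1* is highest in the samples with the largest totals, which are the High samples and adult sample 11 (open circle), and *Csf1r* is not.

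Of 46 markers of other cell types, 13 were called higher in High than in Low and 2 lower. That is 28.3% higher, against 28.2% of the 770 genes, so as a whole they were called higher as often as the panel. The summed value of 6 astrocyte markers was 1412 to 2143 in High, 581 to 833 in Low and 467 to 677 in adult samples. In limma, 3 of the 6 were higher in High than in Low and none lower. These were *Kcnj10*, a potassium channel (1.96), *Sox9*, a transcription factor (1.95), and *Gja1*, a gap junction protein (1.32), while *Aldh1l1*, *Slc1a3*, *Kcnj10* and *S100b* were above background in no Low sample. The 7 endothelial markers summed to 669.5 to 1312, 277 to 394 and 326 to 469.7, with 4 higher in High and *Tie1* above background in none of the 3 groups.

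The 7 T cell markers summed to 251 to 1044, 107 to 168 and 90.8 to 254.5, with 3 higher in High, led by *Cd3e* of the T cell receptor complex (3.81). Of these 7 markers, 5 were above background in some High sample and none in any Low sample, so the size of such differences is limited by background. The 5 markers of monocytes and border macrophages summed to 337 to 555, 179 to 249 and 189 to 288, with 2 higher. Oligodendrocyte sums of 7 markers overlapped between the groups (179 to 336, 156 to 205 and 185 to 319), as did neuronal sums of 8 (251 to 446, 244 to 305 and 212 to 306). B cell (3 markers) and neutrophil sums (3 markers) overlapped between High and Low, at 40.55 to 75.8 against 57.4 to 85.6 and at 89.35 to 378 against 168 to 313, with adult sums of 30.3 to 88.5 and 479 to 790.7. Of the neuronal markers, 5 were above background in some High sample, 1 in some Low and 1 in some adult sample. Among them *Rbfox3*, a nuclear protein of neurons, was called higher in High than in Low (2.45) and adult microglia (1.81), with all 4 High samples above background and no Low or adult sample. *Tubb3* and *Nefl*, of the neuronal cytoskeleton, were called lower in High than in Low (-1.16 and -1.03), with 2 and 1 High samples and 1 and 0 Low samples above background. The difference of *Nefl* thus rests on values at background, and that of *Tubb3* does so in most samples. *Nefl* was no longer called without any 1 of 6 samples. With a pseudocount of 20, or with background subtracted, no neuronal marker was called lower. Of the oligodendrocyte markers 3, 0 and 2 were above background in some High, Low and adult sample, of the B cell markers 2, 0 and 0, and of the neutrophil markers 1 in each group. *Mog*, *Slc17a7*, *Ms4a1* and *Ly6g* were above it in no kept sample. These calls depended on the scaling. At equal panel totals no astrocyte marker was called higher and 2 lower in High than in Low, endothelium and T cells each had 1 higher and 1 lower, border macrophages and monocytes 0 and 1, and neurons 1 and 5. The part of other cell types in the level of *Csf1*, which astrocytes and endothelium also make, was not tested.

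The panel held 104 genes around CSF1R signaling in 11 lists, compiled with earlier results of these data known. Between High and Low, limma called 26 of the 104 higher and 17 lower in High, 41.3% in all against 37.8% of the 770 genes. The median log2 difference of the 104 was 0.044, against 0.26 for all genes. Directions below are those of the deposited scaling. Between High and Low, 8 of the 104 were called higher and 44 lower at equal panel totals, 46 and 2 with the 6 most stable housekeeping genes, and 85 and 0 with the positive controls alone, so the balance of directions was set by the scaling. Of all 770 genes, 59 and 300, 359 and 4, and 659 and 0 were called under the same settings. As deposited, 28.2% of the whole panel were called higher and 9.61% lower between High and Low, which is about 3 and 1 genes in a list of 11.

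In the PI3K and AKT arm, which carries survival signals from the receptor, 3 of 11 genes rose, near the share of the panel, and 2 fell. *Akt1*, the kinase at its center, was 7270 ± 710 (SD, n = 4) in High and 1432 ± 216 in Low, a log2 difference of 2.35 (SE 0.21, limma adjusted p = 7.4e-06). *Pik3cg* and *Pik3cb*, catalytic subunits of PI3K, rose by 1.71 and 1.26. *Akt2* fell by 1.29 and the regulatory subunit *Pik3r1* by 1.11, and without High sample 5 the difference of *Pik3r1* was -0.96 and no longer called. The median of the arm was 0.46. *Akt1* was the 1 gene of the arm called higher at equal panel totals, against 5 lower, with *Pik3cg* at 0.68 and *Pik3cb* at 0.23, and with the 6 most stable housekeeping genes 6 were higher and none lower.

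The Src kinase, DAP12 and phospholipase arm, which links the receptor to the cytoskeleton and to calcium signals, had no gene that rose and 4 of 11 that fell. *Was*, a regulator of actin in blood cells, was 112 ± 45.9 in High and 349.6 ± 38.8 in Low and fell by 1.72 (SE 0.30, limma adjusted p = 0.00064). *Vav1*, an exchange factor for Rac, fell by 1.25, the Src family kinase *Lyn* by 1.08 and *Tyrobp*, which encodes the adaptor DAP12, by 1.05. The median of the arm was -0.80, beside a difference of -0.84 for *Csf1r*. The last 3 calls rested on single samples: the differences were -0.93 for *Vav1* and -0.78 for *Lyn* without High sample 5, and -0.89 for *Tyrobp* without High sample 7. With the 6 most stable housekeeping genes, 2 genes of the arm rose and none fell.

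In the RAF, MEK and immediate early arm, 3 of 9 genes rose, near the share of the panel, and none fell. *Ets2*, a transcription factor of the ETS family that ERK phosphorylates, was 2646 ± 953 (SD, n = 4) against 277 ± 36.1 and rose by 3.18 (SE 0.28, limma adjusted p = 7.4e-06). *Creb1*, a transcription factor activated by kinases of this cascade, rose by 2.01 and *Dusp7*, a phosphatase that removes phosphate from ERK, by 1.53. The immediate early genes *Fos* and *Egr1* had differences of -0.029 and -0.58 and were not called, and the median of the arm was 0.036. At equal panel totals 1 gene of the arm rose and 3 fell.

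Among 11 other receptors of cytokines and growth factors, 4 rose and none fell, also near the share of the panel. The receptor tyrosine kinases *Flt1*, *Egfr* and *Igf1r* rose by 2.66, 2.53 and 2.43. *Igf1r*, the receptor of insulin-like growth factor, was 1405 ± 104 (SD, n = 4) against 263 ± 53.0. *Flt1* was above background in no Low sample, so the size of its difference is limited by background, as is that of *Kit*, the fourth. *Csf1r*, of the same class, lay at -0.84 on this scale. At equal panel totals 3 of the 11 rose and 2 fell.

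Of 8 other cytokines and growth factors, the trophic factor *Bdnf* rose by 2.80 (SE 0.32, limma adjusted p = 2.8e-05) and the vascular factor *Vegfa* by 1.74, beside a difference of 2.53 for *Csf1*. *Il3* was called lower but was below background in every sample. In the list of NF-kB and TNF signaling, 2 of 12 rose and 3 fell. The subunit *Rela* rose by 1.41 and the receptor *Tnfrsf1b* by 1.07. The cytokine *Tnf* fell by 1.57, the kinase regulator *Ikbkg* by 1.11 and the subunit *Nfkb2* by 1.07. Without High sample 5, *Tnfrsf1b*, *Ikbkg* and *Nfkb2* were at 0.93, -0.92 and -0.91 and not called, and with the 6 most stable housekeeping genes 5 genes of the list rose and none fell.

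Proliferation, a response to CSF1R activity in microglia, was represented by 11 genes, of which 5 rose and none fell. The cell cycle genes *Cdc25a* and *Cks1b* rose by 2.42 and 1.75 and the replication helicase subunit *Mcm6* by 1.46. At equal panel totals 1 of the 11 rose and 5 fell, and with background subtracted 2 rose and none fell. Leaving out 1 sample left 3 to 6 called higher. Of the 11 BCL2 family members and inhibitors of death, 5 fell and none rose. The death gene *Bcl2l11* fell by 1.85, and the survival genes *Bcl2a1a* and *Bcl2l1* by 1.26 and 1.19, so members of opposite function fell together. *Bbc3* was called lower as well, with no High or Low sample above background. With the 6 most stable housekeeping genes, 3 of this list rose and 2 fell.

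Of 9 homeostatic microglia genes, 4 rose and none fell, with *Tmem119* at 2.02, *P2ry12* at 1.91, the transcription factor *Sall1* at 1.70 and *Gpr34* at 1.13. *P2ry12* and *Gpr34* were above background in no Low sample, which limits the size of their differences, and *Gpr34* was not called without High sample 5 (0.95) or 7 (0.97). At equal panel totals none of the 9 rose and 1 fell. Of 10 genes of disease-associated microglia, 3 rose, near the share of the panel, and 3 fell. The receptor *Axl* (2.45), the secreted *Spp1* (1.97) and the lectin *Clec7a* (1.21) rose. The inhibitory receptor *Lilrb4a* (-1.66), the lipid carrier *Apoe* (-1.34) and *Tyrobp* fell. *Clec7a* was not called without High sample 5 (0.94). After quantile normalization *Spp1* was at -0.10, where the largest values are set equal by construction.

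**Figure D5:**
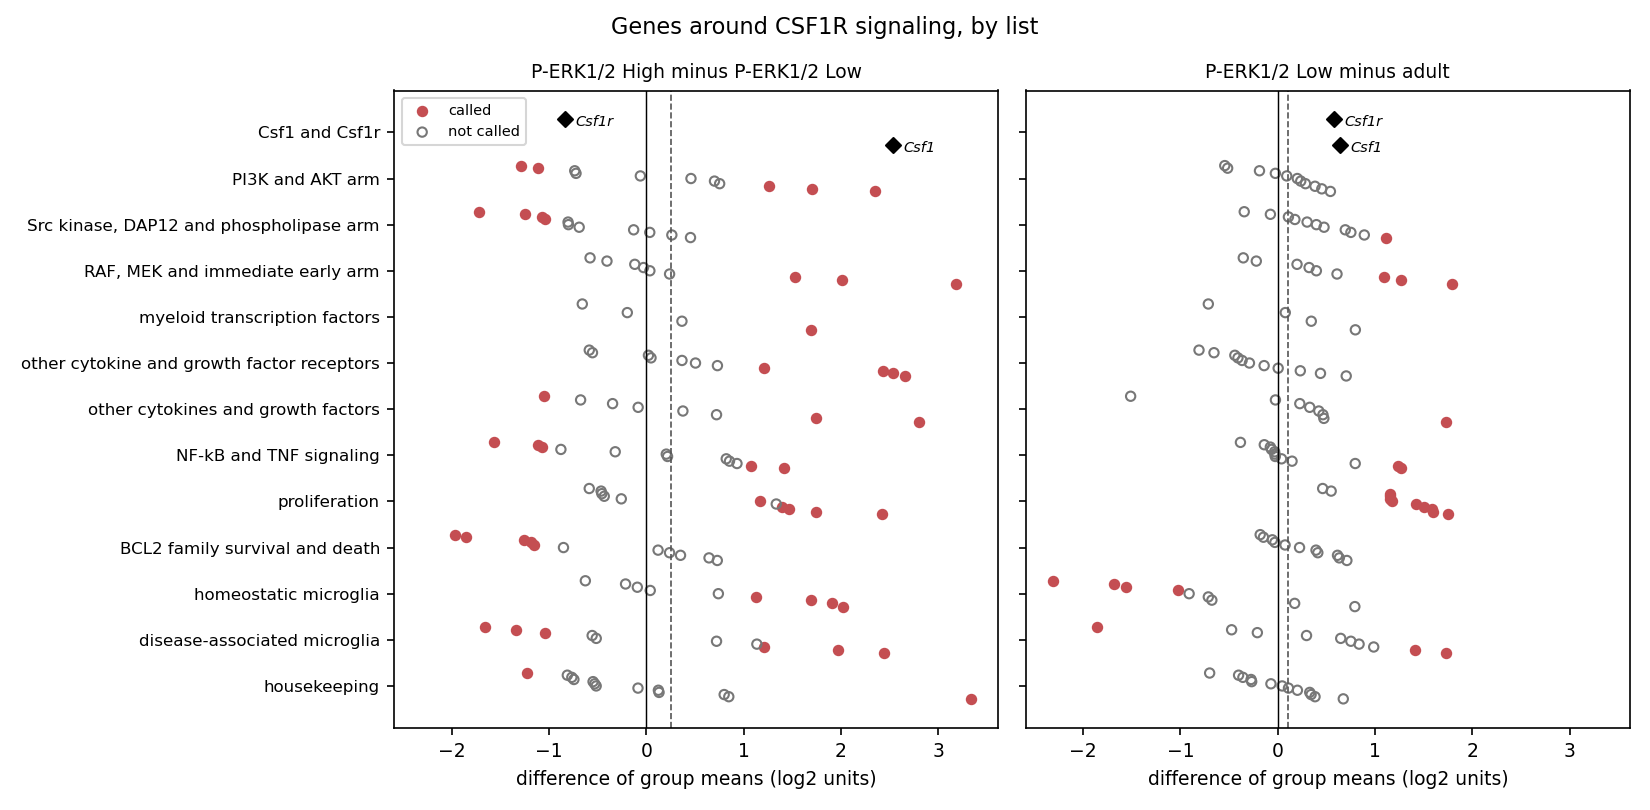
Differences of group means (log2 units, deposited scaling) for *Csf1* and *Csf1r* (black diamonds) and the genes of 11 lists and the housekeeping genes, for High minus Low (left) and Low minus adult (right), with 1 circle per gene, filled where called by limma, and a dashed line at the median of all 770 genes. On the left the receptor list has 4 filled circles above 0, while *Csf1r* lies at -0.84, and on the right the proliferation list has 9 filled circles above 0.

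Between aged Low and adult microglia, where *Csf1* and *Csf1r* differed by 0.64 and 0.58, 17 of the 104 genes rose and 5 fell, 21.2% in all against 10.8% of the 770 genes. The counts were 8 and 11 at equal panel totals, 0 and 23 with the positive controls alone, and 2 and 4 with adult sample 11 added. Of all 770 genes they were 24 and 59, 8 and 218, and 21 and 13. The proliferation list had the most calls of the 11 lists, with 9 of 11 genes higher in Low. *Mcm5*, a subunit of the replication helicase, was 505 ± 71.2 (SD, n = 4) in Low and 149.6 ± 19.8 (SD, n = 3) in adult microglia, a log2 difference of 1.75 (SE 0.17, limma adjusted p = 0.0006). The DNA ligase *Lig1* and the mitotic gene *Birc5* rose by 1.60 and 1.59. The list's median was 1.17 against 0.10 for all genes. Its count was 5 at equal panel totals, and it was 0 both with the positive controls alone and with adult sample 11 added.

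In the RAF, MEK and immediate early arm, 3 of 9 genes rose in Low relative to adult microglia and none fell, with the immediate early genes *Fos* at 1.80 (SE 0.18, limma adjusted p = 0.0006) and *Egr1* at 1.09 and the phosphatase *Dusp7* at 1.26. Of these, *Fos* alone was called at equal panel totals, and with the positive controls alone none of the arm was higher and 2 lower. *Egr1* was at 0.98 and not called without adult sample 4. *Tnf* and the NF-kB inhibitor *Nfkbia* rose by 1.27 and 1.24, *Was* by 1.11, the growth factor *Igf1* by 1.73 and the integrin *Itgax* by 1.41. No gene was called in the PI3K and AKT arm, among the other receptors, or in the BCL2 family. Of the 9 homeostatic genes, 4 fell, with *Fcrls* at -2.31, *Slco2b1* (above background in no Low sample) at -1.68, *Olfml3* at -1.56 and *Tmem119* at -1.03. *Tmem119* was at -0.91 without Low sample 3 and at -0.99 without adult sample 4, and then not called.

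With adult sample 11 added, none of the 3 calls of the immediate early arm remained, the homeostatic list had 3 lower and the NF-kB list 1 higher, and *Igf1* (0.77) and *Itgax* (1.02) were no longer called. *Cst7*, of the disease-associated list, was called lower but lay below background in all Low and kept adult samples.

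Between High and adult microglia, where *Csf1* differed by 3.18 and *Csf1r* by -0.26, 28 of the 104 genes rose and 13 fell, 39.4% against 36.9% of the 770 genes. The counts were 8 and 47 at equal panel totals and 59 and 0 with the positive controls alone. Of all 770 genes they were 39 and 356, and 420 and 1. *Ets2* rose by 3.51 (SE 0.36), *Bdnf* by 3.13 (SE 0.35), *Dusp7* by 2.79 (SE 0.33), *Akt1* by 2.63 (SE 0.24) and *Igf1r* by 2.29 (SE 0.25). The limma adjusted p of these 5 genes lay between 2.9e-05 and 0.00011. With adult sample 11 added, 49 of the 770 genes were called in place of 284, and of the lists around CSF1R signaling the PI3K and AKT arm and the other receptors had 1 each and the remaining lists 0.

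The genes whose pattern was most like each member were ranked by Pearson's r of log2 values over the 11 kept samples, as a description. For *Csf1* these were *Pik3cg* (0.99), the ribosomal protein gene *Rpl36al* (0.99), *Vegfa* (0.98), the synaptic scaffold gene *Dlg4* (0.98) and the autophagy gene *Atg9a* (0.98). Their r within groups was 0.88 to 0.92. At the other end were *Ikbkg* (-0.98), *Tarbp2* (-0.97), *Grn* (-0.96), *Smarca5* (-0.96) and *Vav1* (-0.96). The samples share groups and depth, and each of these values carries both.

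For *Csf1r* the order was led by *Tnf* (0.99), *Bcl2a1a* (0.98), the peroxidase gene *Prdx1* (0.98), *Cd47*, which encodes a signal against phagocytosis (0.97), and the oxysterol receptor *Gpr183* (0.97). The r of *Tnf* with *Csf1r* was 0.97 within groups. The lowest were *Cflar* (-0.97), *Optn* (-0.96), *Tgm2* (-0.94), *Tmem119* (-0.94) and *Ctse* (-0.92). The receptor thus ran with *Tnf* and against the homeostatic gene *Tmem119* over these samples. The r of *Tmem119* with *Csf1r* was -0.71 within groups. *Csf1* and *Csf1r* themselves had an r of -0.52, and of 0.22 for deviations from the group means.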

How the data were processed

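The authors deposited a normalized signal from nSolver (version not given in the sources used here), computed from nCounter counts by 1 factor per sample that equalizes the geometric mean of 13 housekeeping genes, without background subtraction. The step between low values gave the factor, and 100% of values in the 11 kept samples were then whole to within 0.1. These counts served for depth, background and Poisson 95% intervals. Control probe rows held whole numbers not multiplied by that factor and were taken as counts, on the scale of the recovered gene counts, which the sources used here do not state.

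Groups were compared in R 4.3.3 by limma 3.58.1, run on log2(value + 1) over all 770 genes without a filter, each fit holding the 2 groups compared. Calls used p under 0.01 and a log2 difference beyond 1, with p adjusted by the Benjamini-Hochberg method over the 770 genes. For genes near background, size and direction on this scale depend on the background. With it subtracted, the median High minus Low difference of the T cell markers grew from 1.06 to 2.65. That of the B cell markers turned from -0.48 to 0.50. Nothing ties samples to litters or days, and p-values measure the spread between these samples, which may be technical. The fit was tested on simulated data.

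The pair, the lists and the tests were chosen with earlier results of these data known. Named genes were the pair, called list members with the largest change first, housekeeping genes where scaling is discussed, and the 5 genes with the highest and the 5 with the lowest Pearson's r. Results were also computed with a pseudocount of 0.1 or 20, a filter at a mean value of 50, 5 other scalings, background subtraction with a floor of 1, a shared spread, sample 11 added and each sample left out, and the counts of called genes also with an adjusted p under 0.05. The positive-control scaling and the subtraction were added after seeing the data.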

Additional observations from a re-analysis of the deposited data

Results flagged for a closer look

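Over 63 quantities (the pair, their ratio and the named genes) in the 2 groups of 4 samples, 126 tests for a sample far from its group gave 12 such values, and chance gives about 1 in 20. None was a value of *Csf1*, *Csf1r* or their ratio. In High, sample 7 was high for *P2ry12* (281.85, others 128 to 151), *Esam* (241.43, others 182 to 186) and *Slco2b1* (76.36, others 17.2 to 24.1), and sample 5 was high for *Creb1* (927.76, others 218 to 299) and *Nefl* (27.88, others 13.4 to 15.7). In Low, sample 12 was high for *Tyrobp* (11010.4, others 7889 to 8416), *Apoe* (2978.23, others 2213 to 2254), *Mcm6* (467.66, others 383 to 393) and *Flt1* (53.33, others 30.5 to 32.1). Also in Low, *Pik3cb* was low in sample 9 (548.41, others 610 to 621), *Ikbkg* in sample 3 (243.95, others 275 to 280) and *Nfkbia* in sample 6 (487.3, others 570 to 579).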

How the results depend on the processing

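For High minus Low, *Csf1* was 1.50 at equal panel totals, 1.81 after quantile normalization, 3.30 with the 6 most stable housekeeping genes and 4.52 with the positive controls. *Csf1r* was -1.86, -1.33, -0.067 and 1.15 under the same settings, -1.09 with median-of-ratios scaling and -1.20 after background subtraction. For Low minus adult, *Csf1* was 0.25 (panel totals), 0.16 (quantile), -0.17 (positive controls) and -0.65 (sample 11 added), and *Csf1r* was 0.19, 0.0505 and -0.24 under the first 3 of these, 0.46 (median of ratios) and 0.82 (background subtracted). For High minus adult, *Csf1* was 1.76, 1.97 and 4.35 under these 3 and 1.88 with sample 11, and *Csf1r* was -1.67, -1.28 and 0.91, with -0.64 (median of ratios) and 0.45 (6 housekeeping genes). With sample 11 the log2 ratio was -1.20 for Low minus adult and 2.17 for High minus adult, and leaving out 1 sample took the former from -0.17 to 0.36, across 0.

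Genes called numbered 291 in High against Low and 659 with the positive controls, 83 in Low against adult and 34 (sample 11), 226 (positive controls) and 125 (background subtracted), and 284 in High against adult and 49 (sample 11). Of the calls in High against Low, 74.6% were higher as deposited, 16.4% at equal panel totals, 60.3% with median of ratios, 50.7% after quantile normalization, 98.9% with the 6 housekeeping genes and 100% with the positive controls. In the same order of settings these shares were 74.7%, 28.9%, 62.8%, 59.8%, 68.4% and 3.54% in Low against adult and 79.2%, 9.87%, 59.4%, 50.5%, 98.6% and 99.8% in High against adult. With the positive controls, *Akt2* (0.69), *Pik3r1* (0.86), *Was* (0.25), *Vav1* (0.73), *Lyn* (0.90), *Tyrobp* (0.94), *Tnf* (0.42), *Ikbkg* (0.86), *Nfkb2* (0.90), *Bcl2l11* (0.10), *Bcl2a1a* (0.73), *Bcl2l1* (0.79), *Lilrb4a* (0.33), *Apoe* (0.65), *Tubb3* (0.77) and *Nefl* (0.85) turned, and *Spp1* did so after quantile normalization (-0.10). Other values of named genes kept their direction and call in 1143 cases and lost the call in 129, and *Nefl* has no value under the filter at a mean of 50.

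Leaving out 1 sample kept *Csf1r* between -0.92 and -0.72, 0.50 and 0.66, and -0.35 and -0.14 in the 3 comparisons in this order, and *Csf1* of Low minus adult between 0.49 and 0.86. Genes called ran over 235 to 310, 75 to 95 and 225 to 303. No paired analysis was possible because no label ties a High sample to a Low sample. The count tests of edgeR and DESeq2 were not run. At the depth reached, 278 genes exceeded background in no Low sample, 202 in no kept adult and 73 in no High sample, which limits their differences but not those of the pair.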
